A study of Drosophila melanogaster with 3 samples.

Results

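The genes described here are the 179 protein-coding genes of Drosophila melanogaster named as odorant receptors (Or, 59 genes), gustatory receptors (Gr, 60 genes) or ionotropic receptors (Ir, 60 genes). They were chosen by symbol alone, as Or, Gr or Ir followed by digits and a lower-case letter, among 13945 protein-coding genes on the main chromosome arms, and 6 pseudogenes with such a symbol were left out. Orco, the shared partner of odorant receptors, carries no such symbol and is described separately. Chromatin immunoprecipitation with sequencing had been done on embryos of both sexes, 0 to 24 h old, from a single transgenic line that stably expresses E(spl)mβ fused at its C terminus to eGFP, using an antibody against the tag. The 3 biological replicates form 1 group, so there was no other genotype, stage or treatment to compare with. The labels name neither the promoter nor the copy number of the transgene, and the control libraries were not analysed here. The measurements are peak lists, 1 for each replicate, 1 for the pooled replicates and 1 of peaks that passed the irreproducible discovery rate (IDR), a filter on agreement between replicates. Each peak has a summit, the position where its signal is highest, and a signal, the authors' enrichment over control, which ranks peaks within a list and cannot be compared between lists. The depth of the libraries is unknown.

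Odorant receptors are membrane proteins that form odour-gated ion channels together with Orco in the olfactory neurons of the antenna, the maxillary palp and the larval dorsal organ. Gustatory receptors are related proteins that detect sugars, bitter compounds and carbon dioxide, and ionotropic receptors descend from ionotropic glutamate receptors and detect acids, amines, salts, humidity and temperature. Most olfactory neurons express one or a few of these genes, and sensory neurons are a small minority of the cells of an embryo. E(spl)mβ, a repressor with a basic helix-loop-helix domain, is encoded in the Enhancer of split complex, whose genes are switched on by Notch signalling, and repressors of this family limit the choice of neural precursors, those of sensory organs included. Whether the receptor genes were transcribed in these embryos was not measured.

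The DNA under the IDR summits is shown for 3 of the 4 receptor genes that had such a summit within 1 kb of a transcription start site (TSS), because these summits carry the count that follows. Gr63a is added as a receptor gene outside the IDR list with a summit near its TSS in every replicate list. The sequences were read on the forward strand from the RefSeq Release 6 genome (dm6), up to 100 bases on each side of the summit, and were ended where an annotated gene begins. Capitals mark matches to the motifs searched, on either strand and with overlaps allowed. The motifs were CACGTG, an E-box bound by E(spl) repressors, CACGCG, a site of Hairy-type repressors, CACNAG, the N-box, ATCGAT, the core of the DNA replication-related element, and GAGAG, the site of GAGA factor. The Gr32a sequence is chr2L:11113172-11113372, that of Or88a is chr3R:14108722-14108922, that of Or9a is chrX:10460575-10460735 and that of Gr63a is chr3L:3896725-3896899.
Gr32a: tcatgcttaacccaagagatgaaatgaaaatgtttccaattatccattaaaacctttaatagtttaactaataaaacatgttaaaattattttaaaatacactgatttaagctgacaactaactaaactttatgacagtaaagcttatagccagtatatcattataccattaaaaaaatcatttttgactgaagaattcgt
Or88a: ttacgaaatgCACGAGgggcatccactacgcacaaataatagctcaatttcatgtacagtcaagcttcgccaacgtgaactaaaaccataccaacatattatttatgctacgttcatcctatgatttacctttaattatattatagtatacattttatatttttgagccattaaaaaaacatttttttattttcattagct
Or9a: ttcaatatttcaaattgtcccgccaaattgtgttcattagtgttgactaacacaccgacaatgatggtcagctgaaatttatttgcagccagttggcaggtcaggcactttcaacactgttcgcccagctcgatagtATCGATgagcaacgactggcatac
Gr63a: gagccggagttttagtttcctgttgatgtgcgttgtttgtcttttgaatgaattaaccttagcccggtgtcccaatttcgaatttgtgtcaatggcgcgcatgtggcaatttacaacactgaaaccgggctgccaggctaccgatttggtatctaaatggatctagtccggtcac

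Neither CACGTG nor CACGCG stood within 100 bases of the strongest summit of any of the 11 receptor genes with a pooled summit within 1 kb. These motifs were held by 4.07% and 7.23% of the windows of 100 bases on each side of all 8549 IDR summits. The Or88a window held 1 N-box, beginning 90 bases to the left of the summit, and N-boxes stood in 19% of all IDR windows. The Gr63a window held an N-box beginning 76 bases to the right of the summit, beyond the end of the printed sequence, and the Or45b window held one 81 bases to the right. The Or9a window held 1 ATCGAT, beginning 37 bases to the right of the summit, a motif in 9.3% of all IDR windows. The Gr32a window held none of the motifs, GAGAG included, which stood in 23% of IDR windows. Its bases were 24.9% G or C, against 30.3% in the Or88a sequence, 44.1% in the Or9a sequence and a median of 34.8% over all IDR windows. Absence of a motif says only that these letters are not in the window.

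Few receptor genes had a summit at the TSS, whichever list was read. Of the 179 genes, 4 (2.23%, exact Clopper-Pearson 95% interval 0.612 to 5.62%) had an IDR summit within 1 kb, beside 32.1% of all protein-coding genes. Intervals cover the counting of genes only, and genes are not replicates. The pooled list, which reaches weaker peaks, added 7 genes and gave 11 (6.15%, 3.11 to 10.7%), beside 47.2% of all genes. Receptor genes with a summit within 1 kb numbered 10 (5.59%) in replicate 1, 11 (6.15%) in replicate 2 and 16 (8.94%) in replicate 3, where the shares of all genes were 49.6%, 51.9% and 50.2%. Replicate 3 thus held the most receptor genes and replicate 1 the fewest, and the share of receptor genes lay below that of all genes in each of the 3 lists. Summits in all 3 replicate lists were found at 5 genes (2.79%, 0.913 to 6.4%), beside 41.6% of all genes. A summit in any of the 5 lists was found at 21 genes (11.7%, 7.41 to 17.4%), beside 59.8% of all genes, and 158 receptor genes had none. No cutoff on the deposited q-value was set here, and several of the 21 genes rest on weak calls, given below.

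**Figure D1:**
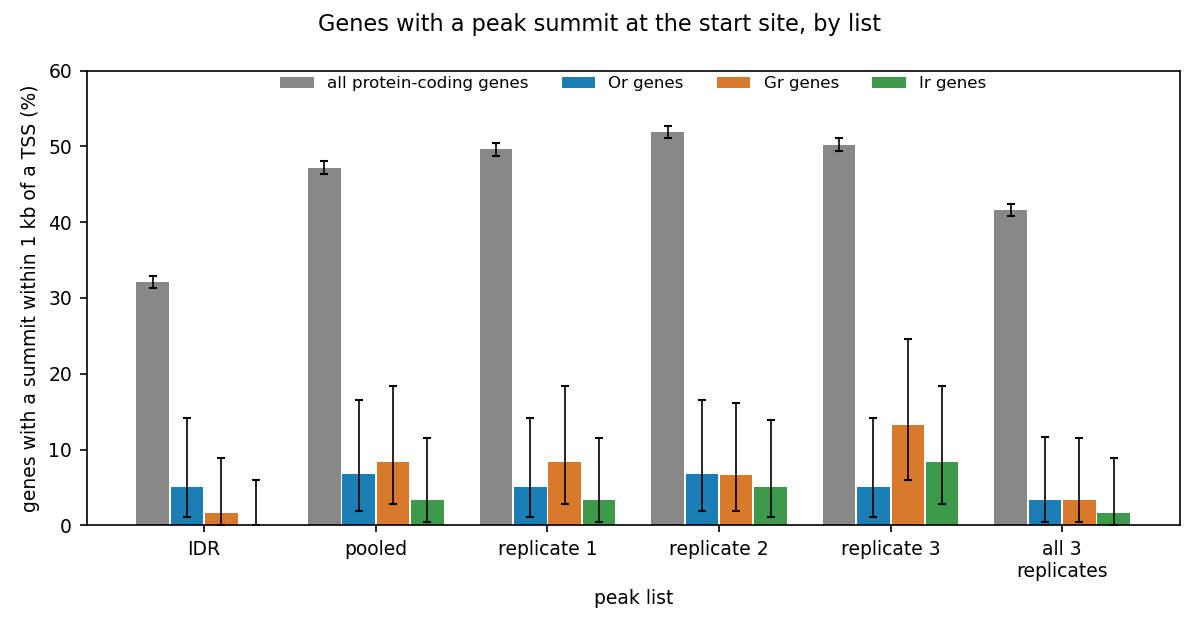
Share of genes with a summit within 1 kb of a TSS (y axis, %) in each peak list and in all 3 replicate lists together (x axis), with bars for all protein-coding genes and for the Or, Gr and Ir genes, and exact 95% intervals over genes as error bars. All protein-coding genes stand between 32.1% and 51.9%, while no receptor family exceeds 13.3%, reached by the Gr genes in replicate 3.

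The families could not be told apart at this number of genes. IDR summits were found at 3 of 59 Or genes (5.08%, 1.06 to 14.1%), at 1 of 60 Gr genes (1.67%, 0.0422 to 8.94%) and at 0 of 60 Ir genes, which allows a share of up to 5.96%. In the pooled list the counts were 4 Or, 5 Gr and 2 Ir genes, and in any list 5, 10 and 6. The 3 families' intervals overlap in each of these lists, and the order of the families changed from list to list.

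Among the 4 genes with an IDR summit, Gr32a, which encodes a receptor for bitter compounds and a male pheromone, had the highest signal. Gr32a (FBgn0041246, 2L, 11114014 to 11115823, plus strand) had its summit at 11113272, which is 742 bp upstream of the TSS. The signal there was 1952.9, rank 620 of 8549. Replicates 2 and 3 held the summit within 18 and 6 bp, with signals of 420.6 and 561.5 and ranks of 687 and 852. Replicate 1 held no peak over this position, and its nearest summit was 6461 bp away. Among the replicate lists, the Gr32a summit was thus found only in those of replicates 2 and 3. How much signal replicate 1 had there cannot be read from its list.

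Or88a, expressed in trichoid olfactory neurons that respond to fly odours, was next in signal. Its TSS (FBgn0038203, 3R, 14109445 to 14110823, plus strand) lay 623 bp from the summit at 14108822, which had a signal of 1392.2 and rank 1060. The replicate signals at Or88a were 694.7, 281.3 and 414.8, with ranks of 907, 1320 and 1349. The 3 replicate summits were within 9 bp of the IDR summit, so every replicate placed the peak at one position.

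Or49a, a receptor for odours of parasitoid wasps expressed in larvae and adults, had a signal of 921.3 and rank 2072. Its summit at 12392859 lay 624 bp upstream of the TSS (FBgn0033727, 2R, 12393483 to 12394842, plus strand). Replicate signals were 479.3, 206.9 and 229.3, with ranks of 1660, 2192 and 3090. All 3 replicates held a summit within 11 bp of it. The strongest peak of replicate 3 there ended at 12392857, just short of the IDR summit, which a weaker peak of that replicate covered. The pooled list held another summit 421 bp upstream of Or49a, of signal 258.3.

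Or9a, an odorant receptor of the adult antenna, had the weakest of these summits and stood at the edge of the distance limit. The summit at 10460675, of signal 552.1 and rank 4110, lay 999 bp upstream of the TSS (FBgn0030204, X, 10458186 to 10459676, minus strand). The replicate signals were 299.8, 124.6 and 132.3, and the replicate 3 summit, 1008 bp from the TSS, fell just outside 1 kb. The next receptor gene outward was Gr89a, with its nearest IDR summit 1344 bp away. Within 500 bp of a TSS no receptor gene had an IDR summit, while 28.1% of all genes did.

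Most of these summits lay nearer to the TSS of another gene. The Gr32a summit was 211 bp from the TSS of Idua, which encodes the lysosomal enzyme alpha-L-iduronidase, the Or88a summit was 501 bp from that of CG12402, and the Or9a summit was 61 bp from that of Neb-cGP. In these 3 cases the other gene was transcribed away from the receptor gene and the summit lay between the 2 starts. The pooled list held another Or88a summit, at 14109024 with a signal of 269.5, which was nearer to Or88a (421 bp) than to CG12402 (703 bp), and replicates 1 and 3 listed it too. Or49a alone had no other TSS within 1 kb of its summit, the next being that of Cpr49Ad, a cuticle protein gene, at 1160 bp. With each summit given only to the gene with the nearest TSS, Or49a was the only receptor gene left of 179 (0.559%, 0.0141 to 3.07%), beside 24.1% of all genes. Where the summit also had to lie in one of the 8549 strongest peaks of both replicates that remained, 3 of the 4 genes were left without replicate 1 and 3 without replicate 3. Without replicate 2 only Or88a and Or9a were left, 2 genes. Or49a was lost both here and without replicate 1. Its replicate 3 peak of rank 3090 ended at 12392857, short of the IDR summit at 12392859. The replicate 3 peak that covered this summit ranked 11971, outside the strongest 8549.

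**Figure D2:**
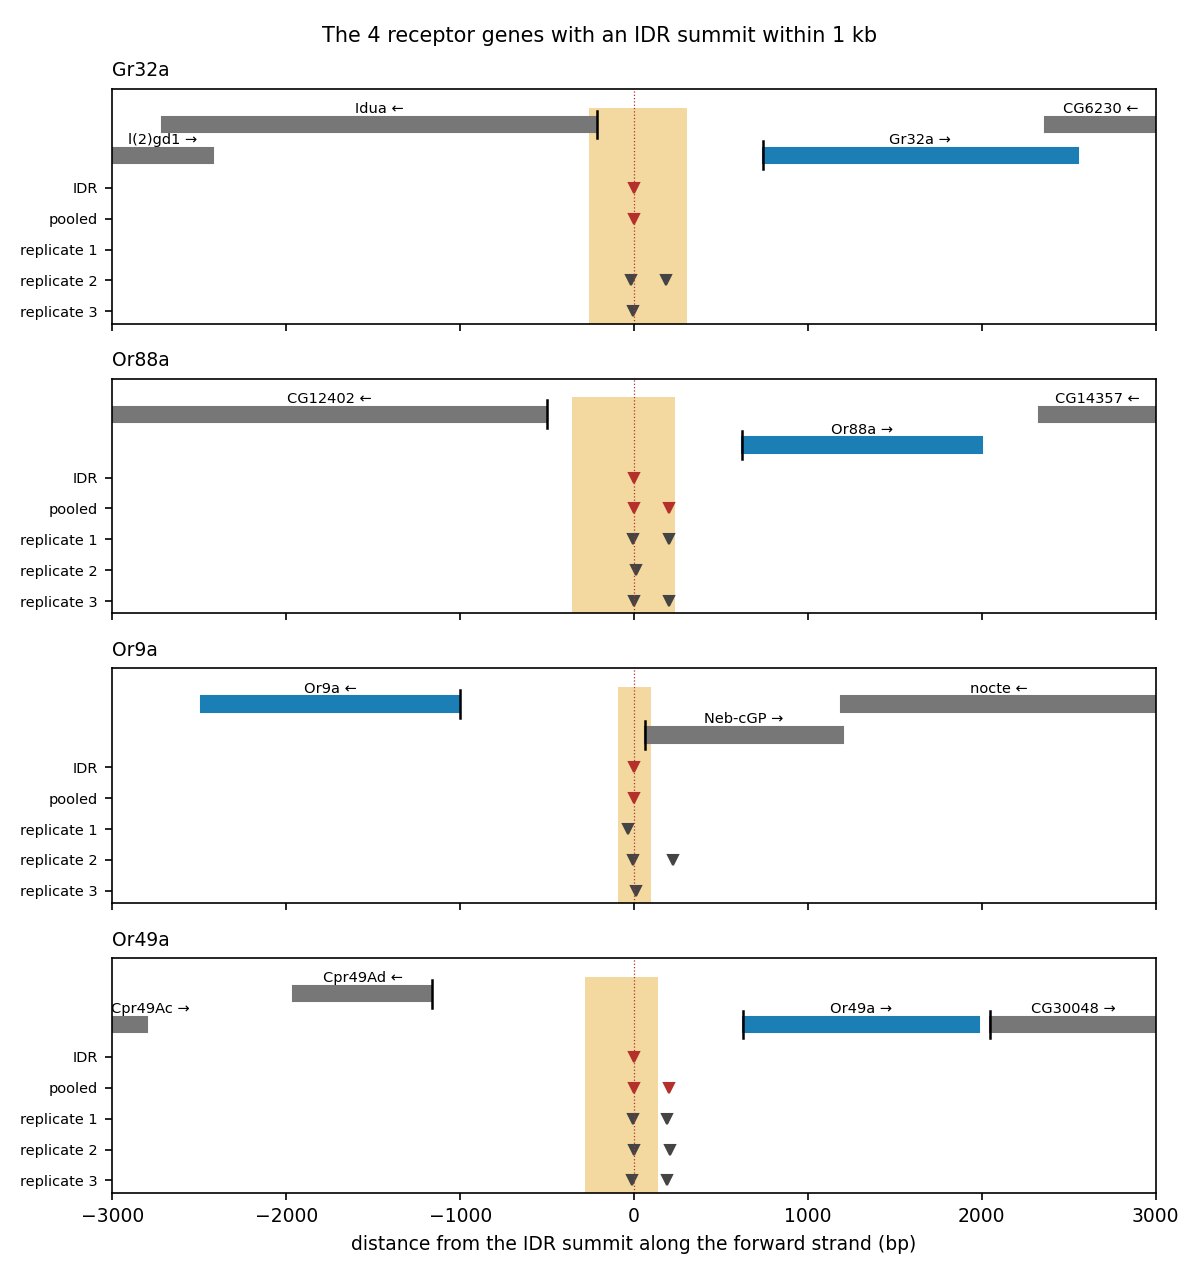
Maps of the 4 loci, centred on the IDR summit, with distance along the forward strand in bp on the x axis, genes as bars (receptor genes blue, others grey, arrows for strand, black ticks for the outermost start), the IDR peak shaded, and summits of each list as triangles. At Gr32a, Or88a and Or9a the IDR summit lies between the starts of the receptor gene and of a gene on the opposite strand, and replicate 1 has no summit in the window of Gr32a.

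Receptor genes with no IDR summit within 1 kb had lower signals in the pooled list. The IDR list held no signal below 286.5, and its 4 receptor summits had the same ranks in the pooled list. The lower signals are therefore not a result apart from that cut. Gr63a, which forms the carbon dioxide receptor with Gr21a, had a pooled signal of 173.2 at a summit 222 bp upstream, and replicate signals of 97.1, 35.6 and 43.7. That summit was 75 bp from the TSS of Lamtor4, a subunit of the Ragulator complex. Gr97a, a gustatory receptor, had a pooled signal of 239.8 at 653 bp upstream and replicate signals of 170.2, 30.5 and 76.0, and the TSS of CG5521 lay 208 bp from the pooled summit. Both genes had a summit in every replicate list, and at both the nearest TSS belonged to a gene on the other strand. Ir60e, an ionotropic receptor, had summits in all 3 replicates, of signals 73.4, 70.6 and 42.8, but none within 1 kb in the pooled list, and CG13585 had the nearer TSS in each.

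The remaining pooled summits had no other TSS within 1 kb. Ir67c, an ionotropic receptor, had a pooled signal of 146.9 at 269 bp upstream, and of the replicates only replicate 3 listed it, with 82.7. Gr77a, a gustatory receptor gene that lies inside CG13252, had 136.9 at 106 bp upstream and was likewise listed by replicate 3 alone, with 83.6. Ir21a, needed for the sensing of cool temperatures, had 102.4 at 62 bp upstream, and signals of 39.0 in replicate 1 and 30.3 in replicate 3. None of these was in all 3 replicate lists. Or45b, expressed in larval olfactory neurons, had 92.0 at 810 bp upstream and 26.0 in replicate 2. Gr89a, expressed broadly in bitter-sensing neurons, had 61.3 at 89 bp downstream, 48.7 in replicate 1 and 21.7 in replicate 3. The deposited −log10 q-value of the Gr89a peak in the pooled list was 0.44, among the weakest calls the list holds, whose lowest signal was 58.5. In the same list it was 1.91 for Ir67c, 1.72 for Gr77a, 1.06 for Ir21a and 0.88 for Or45b.

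Summits of single replicates completed the 21 genes. Gr5a, a trehalose receptor, had signals of 79.8 in replicate 1 and 45.1 in replicate 2, with the TSS of Tre1, a receptor that guides germ cell migration, nearer at 203 and 150 bp. Ir10a was listed by replicates 2 and 3 with 24.3 and 23.2. Ir48c was listed by replicate 2 alone with 38.3, 24 bp from a TSS of its host gene ths, which encodes a fibroblast growth factor. Replicate 1 alone listed Gr93d, with 47.9. Replicate 3 alone listed Gr21a (46.8), Gr39b (34.0), Ir87a (30.0), Or67a (24.5) and Gr23a (24.0). The deposited −log10 q-values of these were 1.66, 0.94, 0.74, 0.49 and 0.47, in that order. They were 0.91 for Gr93d, 0.75 and 0.43 for Ir10a, 1.70 for Ir48c, and 2.27 and 2.25 for Gr5a. Across the 179 genes, 5 had a summit in 3 replicate lists, 6 in 2 and 10 in 1.

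Of the receptor genes called, many rested on the lower part of their list. In the pooled list 5 of 11 had their strongest summit in the weaker 50% of the list, against 14.4% of all genes called there. The counts were 5 of 10 in replicate 1, 5 of 11 in replicate 2 and 10 of 16 in replicate 3, against 16.1%, 17.2% and 16.8% of all genes called. In the IDR list 0 of 4 were in the weaker 50%, against 35.5% of all genes called, a difference that 4 genes cannot show. The strongest summit of the receptor genes was nearer to another gene's TSS in 3 of 4 cases in the IDR list, 5 of 11 in the pooled list, and 6 of 10, 8 of 11 and 5 of 16 in replicates 1, 2 and 3. This was not counted over all genes called. With each summit given to the nearest TSS only, the share of all genes called fell as well. It went from 32.1% to 24.1% in the IDR list and from 47.2% to 39.4% in the pooled list.

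**Figure D3:**
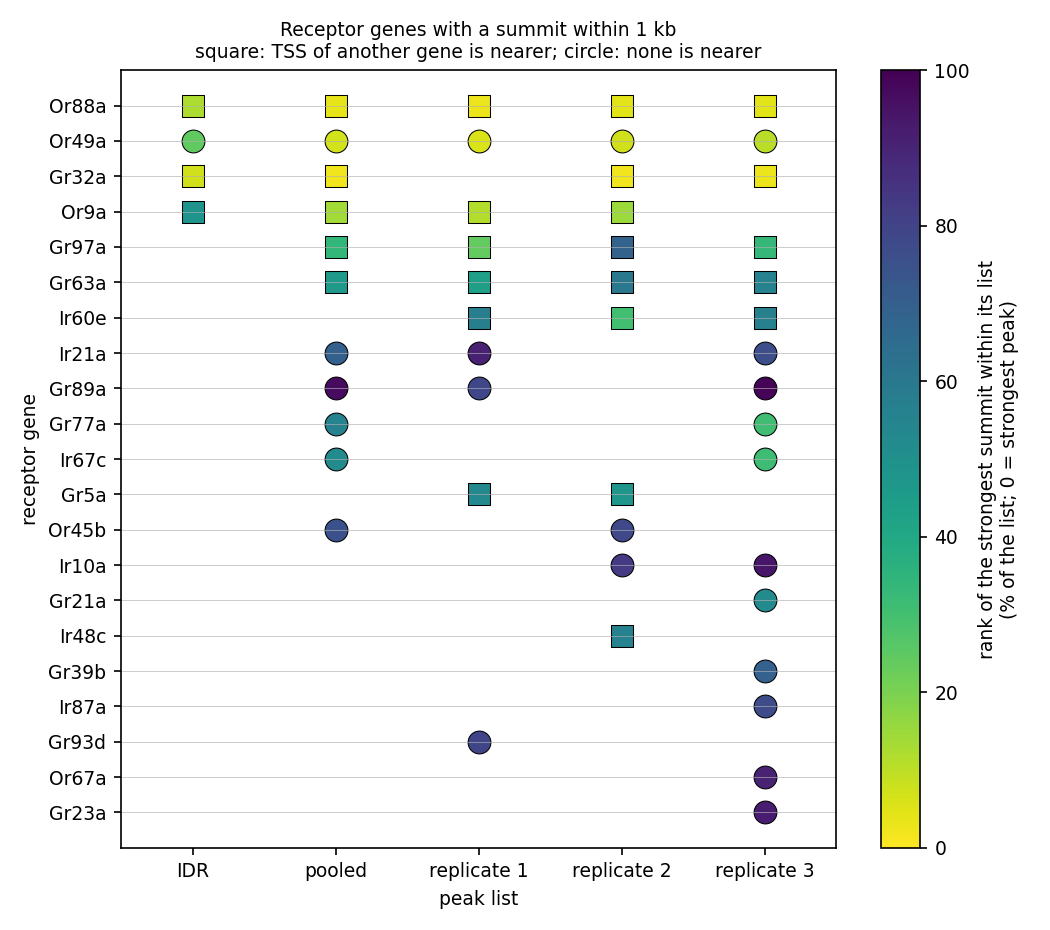
The 21 receptor genes with a summit within 1 kb in any list (y axis) by peak list (x axis); colour gives the rank of the strongest summit as a percentage of the list, and squares mark summits nearer to another gene's TSS. Or88a, Or49a, Gr32a and Or9a hold the strong ranks, and most genes found in 1 or 2 replicate lists have ranks in the weaker part of the list.

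The receptor genes also lay far from IDR summits. Their median distance from a TSS to the nearest IDR summit was 14207 bp (quartiles 6871.5 and 29512 bp), against 4206 bp (316 and 13051 bp) over all genes. Genes with 1 TSS and under 5 kb had a median of 5516 bp. Neighbouring receptor genes can share the nearest summit, as Gr22a to Gr22d do, so their distances are not independent. The medians were 18498 bp for Or, 11612 bp for Gr and 11474 bp for Ir genes. No IDR summit lay within 10 kb of 116 receptor genes (64.8%), against 30.6% of all genes. Among genes with 1 TSS and under 5 kb this share was 35.1%. The Or genes had the highest such share of the families at 79.7%, beside 56.7% of Gr and 58.3% of Ir genes. Within 50 kb the gap was smaller, with a mean of 5.84 summits around receptor genes and 8.39 around all genes. None within 50 kb was found for 16 receptor genes (8.94%), against 5.29%. The largest class was 10 to 50 kb from a summit, with 100 genes (55.9%, all genes 25.4%).

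**Figure D4:**
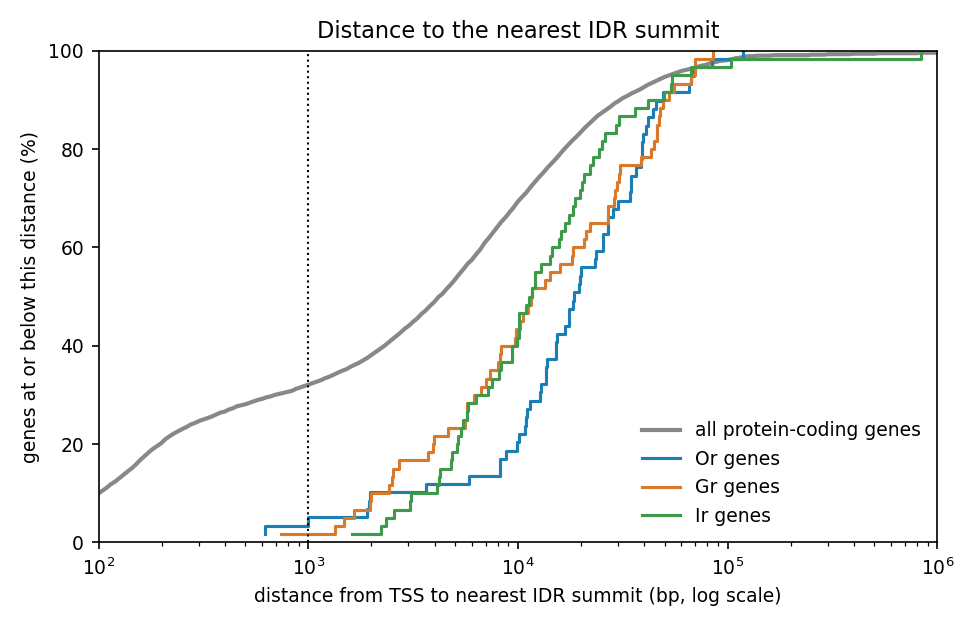
Cumulative share of genes (y axis, %) whose nearest IDR summit lies at or below the distance on the x axis (bp, log scale), for all protein-coding genes and each receptor family, with 1 kb dotted. The curve of all genes stands at 32.1% at 1 kb, whereas the first receptor gene is at 623 bp and the medians of the families run from 11474 to 18498 bp.

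The 3 genes farthest from an IDR summit were Ir41a (837062 bp), Or35a (117984 bp) and Ir20a (103146 bp). Ir41a, an antennal receptor for amines, spans 104437 bp, whereas 174 of the 179 receptor genes are under 5 kb long. Or35a encodes a broadly tuned receptor of coeloconic sensilla. By arm, the 25 genes on X, 31 on 2L, 46 on 2R, 35 on 3L and 42 on 3R held 1, 1, 1, 0 and 1 of the genes with an IDR summit within 1 kb. The shares of all protein-coding genes called on these arms were 33.5%, 29.6%, 31.8%, 33.5% and 32.8%, in the same order. Medians of the distance ran from 10157 bp on 3L to 28542 bp on 2L, and no receptor gene lies on chromosome 4.

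The nearest IDR summit stood between 1 and 2 kb from the TSS of 9 receptor genes (5.03%). The 6.04% of all genes in this class leaves out the 32.1% with a nearer summit, so the shares are not a like comparison. Counting every summit by its distance from the 5′ end of the gene, there were 3.35 per 100 receptor genes from 1 to 2 kb upstream and 2.23 downstream, against 8.14 and 6.83 per 100 of all genes. These 9 genes shared 8 summits, because Gr10a and Or10a share a TSS. The nearest TSS belonged to another kind of gene at 4 of them. The summit of Gr97a was 12 bp from the TSS of the tetraspanin gene Tsp97E, that of Or85f was 78 bp from CG34117, that of Ir76b was 293 bp from CG14187, and that of Gr5a was 839 bp from Tre1. The highest signals were 1295.7 for Or85f at 1941 bp and 1030.7 for Gr89a at 1344 bp, downstream in both cases. The others were Or45b at 1896 bp, the pair Gr10a and Or10a at 1965 bp and Gr93a at 1990 bp, with signals from 299.5 to 354.8.

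Receptor genes are compact and often stand in groups, and their annotation differs from that of most genes. Their median length was 1691 bp against 2166 bp, 167 (93.3%) had 1 TSS against 73.5% of genes, and 80 (44.7%) had a TSS of another receptor gene within 10 kb. Among genes with 1 TSS and under 5 kb, 4 of 165 receptor genes (2.42%, 0.664 to 6.09%) had an IDR summit within 1 kb, beside 23.3% of all such genes.

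In 133 receptor genes (74.3%) the annotated TSS coincided with the first base of the coding sequence, so that the annotation holds no transcript leader there, and in all protein-coding genes this was so in 523 (3.75%). The shares were 72.9% of Or, 68.3% of Gr and 81.7% of Ir genes. Among genes annotated in this way, 3 of 133 receptor genes (2.26%, 0.468 to 6.45%) had an IDR summit within 1 kb, beside 5.74% of all such genes, the receptor genes included. The 390 such genes that are not receptors had 27 (6.92%, 4.61 to 9.91%), a higher share with an interval that overlaps that of the receptor genes. Both shares lay below the 32.1% of all genes. Among genes with no TSS at the coding start, 1 of 46 receptor genes, Gr32a, was called (2.17%, 0.055 to 11.5%), against 33.1% of all such genes. In the pooled list the counts were 8 of 133 (6.02%, 2.63 to 11.5%) and 3 of 46 (6.52%, 1.37 to 17.9%) for receptor genes, 55 of 390 (14.1%, 10.8 to 18.0%) for the other genes with a TSS at the coding start, and 48.5% of all genes without. The median distance to an IDR summit was 8294 bp for the 390 genes, 13404 bp for the 133 receptor genes and 19054 bp for the 46. With 1 of 46 called in the IDR list and 3 of 46 in the pooled list, a difference between receptor genes with and without a TSS at the coding start cannot be judged. This division was chosen after the counts had been seen, and where transcription of the 133 genes begins was not measured.

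**Figure D5:**
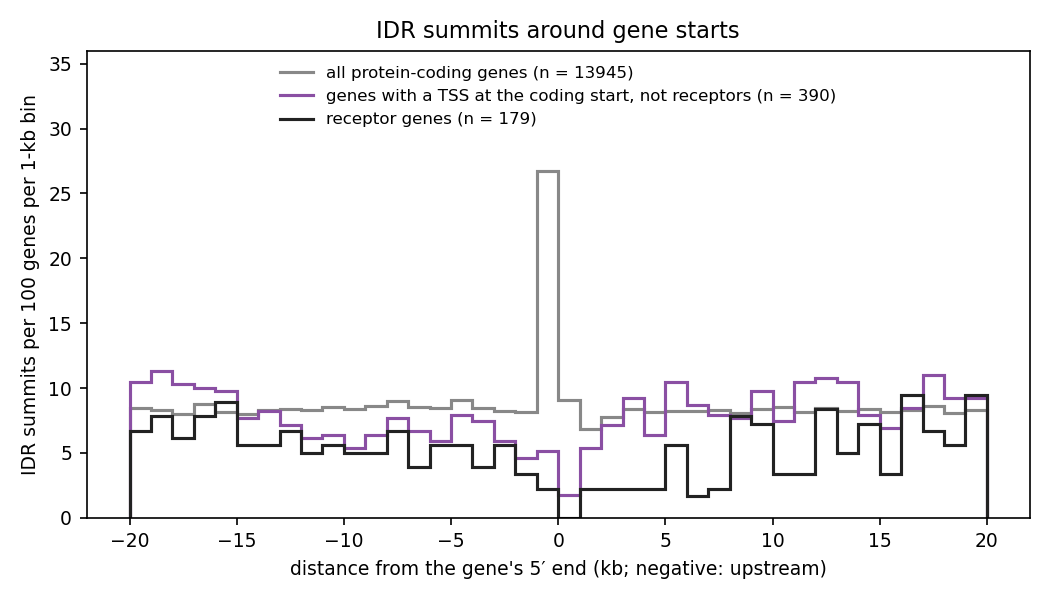
IDR summits per 100 genes (y axis) in bins of 1 kb by distance from the 5′ end of the gene (x axis, kb, negative upstream), for all protein-coding genes, genes that are not receptors with a TSS at the coding start, and receptor genes. In the first 1 kb upstream the values are 26.7, 5.13 and 2.23, so that the peak at the start seen over all genes is missing from both smaller sets.

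Inside the receptor genes no IDR summit was found, at 0 of 179 gene bodies, which allows a share of up to 2.04%. This share was not counted over all genes, and receptor genes are short (median 1691 bp), so 0 cannot be called low. Within 1 kb of a TSS, the genes around the receptor genes had summits at a higher share than the receptor genes did. Each receptor gene's nearest gene of another kind, counted once, was called in 23 of 138 cases (16.7%, 10.9 to 24.0%), between the share of receptor genes and that of all genes. A TSS of another kind of gene lay within 1 kb of the TSS of 23 receptor genes, of which 1 was called (4.35%), while 4 of those neighbours (17.4%) were. The other 156 receptor genes had 3 called (1.92%). Another protein-coding gene enclosed 25 receptor genes, of which 0 were called (up to 13.7%), while 10 of their 24 host genes were (41.7%, 22.1 to 63.4%). The interval of the host genes includes the 32.1% of all genes. Called hosts include Plp, a centrosome protein gene around Or71a, p53 around Gr94a and the transcription factor gene Poxm around Or85a. The gene ths, around Ir48c, held 7 IDR summits in its body but was not called, having none within 1 kb of a TSS.

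Counts by function were small, and 32.1% of all genes were called in the IDR list. The IR co-receptors Ir8a, Ir25a and Ir76b, with which tuning IRs assemble, had 0 of 3 called in every list, and their nearest IDR summits lay 11673, 2556 and 1606 bp away. The summit nearest to Ir25a had a signal of 3249.0. Of the 9 sugar and fructose receptors 0 were called in the IDR list, with a median distance of 8314 bp, and of the 14 antennal IRs 0 (up to 23.2%), with a median of 21570 bp. The commonly expressed bitter receptors had 1 of 5 (Gr32a), the pheromone receptors 1 of 6 (Or88a), and the larval odorant receptors 1 of 26 (Or49a; 3.85%, 0.0973 to 19.6%), with a median distance of 19770 bp. The pair for carbon dioxide had none in the IDR list and Gr63a in the pooled list. The intervals of the antennal IRs and the larval odorant receptors lie below the share of all genes, and those of the other groups include it. These intervals count genes, which are not replicates and often stand in groups, so they do not test a difference. All genes are also not a like baseline. The share was 23.3% for genes with 1 TSS and under 5 kb, and 6.92% for genes that are not receptors with a TSS at the coding start.

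Other genes of chemosensation, and the glutamate receptors to which the Ir genes are related, were read in the IDR list beside the 32.1% of all genes. Orco had an IDR summit 749 bp upstream of its TSS with no other TSS within 1 kb, of signal 670.4, and replicate signals of 291.8, 148.3 and 246.4. Snmp1 and Snmp2, sensory neuron membrane proteins, had none. Odorant-binding proteins, secreted carriers of odours, had 3 of 52 (5.77%, 1.21 to 15.9%), namely Obp83g (640.3), Obp99b (520.2) and Obp46a (408.1). Of 6 chemosensory sodium channel subunits ppk29 was called (605.0), where the TSS of the translation factor gene eEF5 lay 27 bp from the summit, and of 13 ionotropic glutamate receptor genes 0 were called (up to 24.7%). The intervals of the odorant-binding proteins and the glutamate receptors lie below the share of all genes. They count genes, which are not replicates, so they do not test a difference.

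Transcription factors of chemosensory neurons had 5 of 12 called (41.7%, 15.2 to 72.3%), near the 32.1% of all genes. They were Xbp1, a factor of the unfolded protein response, with a signal of 1967.2 at 58 bp, ato, the proneural gene of a set of olfactory sense organs, with 1250.7 at 117 bp, pdm3 with 510.8, ey with 322.7 and pros with 314.9. Replicate signals at ato were 695.3, 297.3 and 273.1. No other TSS lay within 1 kb of these 5 summits.

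CACGTG and CACGCG were no more frequent at the annotated starts of receptor genes than at those of all genes. In 133 of the 179 receptor genes an annotated TSS was the first coding base, against 3.75% of all genes. The windows, called promoters here, are therefore not a like comparison. In the 301 bases from 250 upstream to 50 downstream of the 5′ end, CACGTG stood in 5 of 179 receptor promoters (2.79%, all genes 4.24%) and CACGCG in 4 (2.23%, all genes 6.17%). The genes with CACGTG were Gr22b, Ir56b, Ir75d, Ir76b and Or74a. None of the 5 had a summit within 1 kb in any list, as was so for 158 of all 179 receptor genes. N-boxes stood in 30.2% of receptor promoters and 29.8% of all promoters. ATCGAT stood in 11.7% against 23.3%, and GAGAG in 20.1% against 29.8%. The median GC content was 39.5% in receptor promoters and 37.9% in all. Matches are a description of letters and say nothing about binding.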

How the data were processed

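The authors called peaks on dm6 in every replicate and in the replicates pooled, with a shared control alignment, and made the IDR list from these, per the deposited provenance records. Fragments were 200 to 800 bp, per the labels. Aligner and peak caller: not given in the sources used here. The deposited signal per peak ranks peaks within a list, the deposited −log10 q-value per peak is the authors', and summits are peak starts plus the deposited offset. The lists held 8549 (IDR), 30000 (pooled) and 30000, 30000 and 30000 peaks, of which 5 in replicate 1 lay off the main arms (X, 4 and both arms of 2 and 3). No read totals are given. Genes and 19607 TSSs came from the Ensembl release 115 annotation and sequence from RefSeq Release 6, and 0 peaks ended past a chromosome.

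A gene was called when a summit lay within 1000 bp of any TSS. Counts have exact Clopper-Pearson 95% intervals (Python 3.11.15, scipy 1.17.1, pandas 2.3.3, numpy 2.4.6, matplotlib 3.10.9); the counting was tested on simulated data. With 1 group no test between groups was made. Members, lists, motifs and alternatives were chosen with earlier results of these data known. Genes named were those with an IDR summit within 2 kb, a pooled summit within 1 kb or summits in all 3 replicates, those of the functional groups, and the 3 farthest; neighbours, hosts, single-replicate genes and promoters with motifs were named with their values in view. Alternatives changed the distance, the peak set, the replicates and the assignment to genes.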

Additional observations from a re-analysis of the deposited data

How the results depend on the processing

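The 4 receptor genes with an IDR summit within 1 kb became 0 within 500 bp (all genes 28.1%). They became 13 within 2000 bp (all genes 38.1%) and 32 within 5000 bp (all genes 53.5%). They became 2 (all genes 24.7%) when the summit had to lie in a peak ranked among the strongest 8549 of every replicate. With each replicate left out in turn and the same asked of the others, they became 2 to 3 (all genes 26 to 26.9%). Leaving out a replicate removes a condition, so this count could not fall below 2. The IDR list itself still drew on all 3 replicates. Other values were 1 with the nearest TSS only (all genes 24.1%) and 0 with summits in the gene body (all genes not counted). Among genes with no TSS at the coding start, a division added after seeing the data, the count was 1 (all such genes 33.1%). The stronger 50% of the list (all genes 20.7%), the 5′ end alone (all genes 30%) and the peak interval (all genes not counted) each left 4. The 11 genes of the pooled list became 7 within 500 bp (all genes 42.6%) and 26 within 2000 bp (all genes 53.2%). With the nearest TSS only they became 7 (all genes 39.4%). The 5 genes with summits in all 3 replicates became 2 with as many top-ranked peaks as the IDR list holds (all genes 26.2%). They became 4 with summits within 100 bp of each other (all genes 34.4%). Without any one replicate they became 7 (all genes 42.9 to 45.9%), a rule that cannot give fewer than 5. The median distance of 14207 bp became 23218 bp with the stronger 50% of the IDR list (all genes 8049 bp) and 15087 bp from the 5′ end alone. Beyond what each rule changes by its construction, the cause was not tested. No paired analysis was possible because the samples form 1 group. Read depth is unknown, so a missing peak may lie below what a library could show, and repeated sequence in receptor clusters was not examined.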

Other observations

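The peak list of replicate 1 differed from those of the other replicates around Gr32a. Its summit nearest to the IDR summit of Gr32a lay 6461 bp away at 11106811 on 2L, with a signal of 1729.4 and rank 139 of 29995, whereas the Gr32a summit itself ranked 687 in replicate 2 and 852 in replicate 3 and had no peak over it in replicate 1. Among the receptor genes with an IDR summit, Gr32a was the only one for which a replicate list held no peak over the summit. The sources used here do not say how peaks were merged or removed, and what sets replicate 1 apart at this position was not tested.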
